A study of Homo sapiens with 8 samples.

Results

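The regions described here were NUP98-binding regions of human embryonic stem cells (ESCs) that lay close to a NUP98-binding region of neural progenitor cells (NeuPCs). They were chosen by the measured gap between the edges of the regions in the deposited lists. An ESC region on chromosomes 1 to 22 was a member when its nearest NeuPC region lay at most 100 kb away, with an overlap counted as a gap of 0. Of 2355 ESC regions on these chromosomes, 513 were near by this rule, which is 21.8% (95% Wilson interval 20.2 to 23.5%, counting error only). The other 1842 ESC regions were used for comparison. The NeuPC list held 3027 regions on the same chromosomes, and 514 of them, 17.0%, had an ESC region within 100 kb. Placing each region within 5 Mb of its own position, as described below, gave 20.3% for ESC regions and 16.0% for NeuPC regions.

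NUP98 was measured by ChIP-Seq, in which crosslinked chromatin is pulled down with an antibody and the recovered DNA is sequenced. The ESCs were HUES6, an established human embryonic stem cell line grown without feeder cells in mTeSR1 medium. The NeuPCs were derived from the same line through embryoid bodies and neural rosettes, so all values come from 1 genetic background. They were grown in DMEM/F12 with N2, B27, FGF2 and laminin. The labels name no transgene or drug for either cell type. Both were fixed in 1% formaldehyde for 10 min, and chromatin was precipitated with the same polyclonal NUP98 antibody (Cell Signaling 2292). There was 1 NUP98 library per cell type, so no value has a replicate error and no test between cell types was made. Normal rabbit IgG libraries of both cell types, and libraries of neurons and of IMR90 lung fibroblasts, belong to the same series and were not analysed here. The study gives read numbers for its libraries, which were not used here, and the part of depth in how many regions each cell type has was not tested. Markers of the labelled cell types could not be checked in lists of DNA regions.

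NUP98 is a nucleoporin, a component of the nuclear pore complex, the channel through which molecules pass between nucleus and cytoplasm. It carries phenylalanine-glycine repeats, moves on and off the pore, and is also found inside the nucleus, where it binds chromatin at some genes. A neighbourhood with regions of both lists is a stretch of the genome where binding was called in both cell types, whether or not the regions overlap. All positions are on hg19 and counted from 1. Genes at these positions were not analysed here, because no annotation of this build was used here.

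Within 100 kb, near ESC regions seldom touched their NeuPC partner. The gap, which is what the members were selected on, had a median of 43.2 kb, with the lower and upper quartile at 20.8 and 70.5 kb. For the other ESC regions the median gap was 399 kb. Only 1 ESC region overlapped a NeuPC region, 33 lay within 5 kb, and 61 lay within 10 kb, on 20 of the 22 chromosomes. In the paper, sites absent from the other cell types made up a majority of ESC and NeuPC sites, but not nearly all. That comparison also included IMR90 cells. Whether it was made from the deposited lists could not be checked here. Gaps ran through the limit without a break. The last members inside it had gaps of 99170, 99514 and 99530 bp, on chromosomes 11, 1 and 7, and the first ESC regions outside it had gaps of 100233, 100539 and 100555 bp, on chromosomes 15, 17 and 11.

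The single overlap was chr18:74679056-74679209 in ESCs, with a score of 76.63, against chr18:74679066-74679215 in NeuPCs, with a score of 67.07. These regions shared 144 bp, nearly their whole length. The next closest pair was on the same chromosome, where the ESC region chr18:77646970-77647120 (score 58.86) began 40 bp beyond the end of the NeuPC region chr18:77646829-77646929 (60.38). Both pairs lay toward the higher end of chromosome 18 and were about 3 Mb apart.

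A further 3 pairs lay closer than 1 kb. On chromosome 12, the ESC region chr12:72172608-72172739 (score 52.21) lay 351 bp from its NeuPC neighbour (60.23). On chromosome 10, chr10:59927476-59927566 (60.21) lay 539 bp from a NeuPC region with a score of 57.99. On chromosome 9, chr9:136221529-136221671 (54.58) lay 623 bp away from a NeuPC region with a score of 59.14. In these pairs the regions of ESCs and NeuPCs stood side by side, without sharing a base.

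The other 7 of the 12 closest ESC regions had gaps between 1330 and 2022 bp. They were chr12:52811510-52811636, chr10:116640301-116640417, chr11:71505497-71505626, chr7:133349215-133349314, chr17:66115694-66115822, chr1:85263374-85263493 and chr10:92459329-92459439. Their ESC scores ran from 50.66 to 62.37 and those of their NeuPC neighbours from 53.17 to 66.15. Chromosome 10 held 10 of the 61 ESC regions within 10 kb, chromosome 1 held 8, and chromosomes 15 and 16 held none. The ESC scores of the 61 regions ranged from 50.18 to 89.97 with a median of 54.03, and the highest belonged to chr3:69427662-69427825, whose NeuPC neighbour lay 6439 bp away with a score of 51.79.

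How many ESC regions would be near by position alone was calculated exactly, without drawing. For each ESC region, every start within 5 Mb of its own was examined, and the share of starts at which a region of that length would lie within 100 kb of a NeuPC region was summed over all ESC regions. This placement gave 476.9 near regions, with an SD of 19.2 for regions placed independently, against 513 observed. The ratio was 1.08, and the counting interval of the ratio ran from 0.996 to 1.16 and included 1. The ratio also moved with the range of placement: it was 1.02 when regions were placed within 1 Mb and 1.13 when they were placed anywhere on the chromosome. When positions in the widest stretch without regions of each chromosome were not allowed, it was 1.05.

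Within 100 kb, the surplus over placement lay at the shorter gaps. Up to 50 kb, 295 ESC regions were observed and 253.6 were given by placement, with an SD of 14.9, a ratio of 1.16. Between 50 and 100 kb, 218 were observed and 223.3 given, a ratio of 0.976. In steps of 20 kb, the first step held 125 regions against 106.0 given by placement and the second held 117 against 99.6. The step from 80 to 100 kb held 87 against 85.7. Steps beyond the limit departed from placement as well. There were 84 against 73.7 from 140 to 160 kb and 80 against 67.4 from 180 to 200 kb. Fewer were seen from 100 to 120 kb, 66 against 81.1, and from 200 to 220 kb, 53 against 64.1. The largest surpluses were thus in the first and second steps, while steps at longer gaps departed in both directions. No SD was calculated for single steps. The ratio up to 50 kb was calculated with placement within 5 Mb only. Within 1 kb the count was 5 against 6.07, within 5 kb it was 33 against 27.5 with an SD of 5.21, and within 10 kb it was 61 against 54.0 with an SD of 7.25. At these closest distances any surplus was about 1 SD of the placement or less. These windows are nested and share regions.

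**Figure D1:**
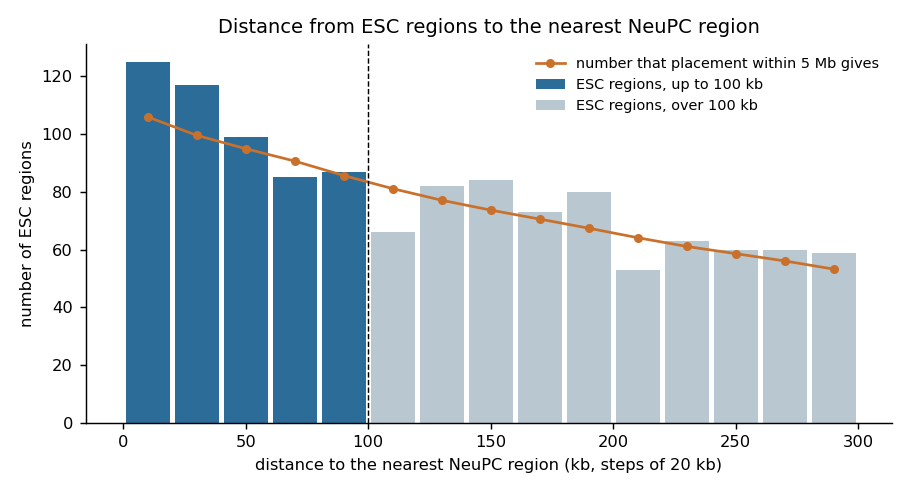
Number of ESC regions (bars) by distance to the nearest NeuPC region in steps of 20 kb up to 300 kb, with the number that placement within 5 Mb gives (points and line) and the 100 kb limit (dashed). The first bar stands at 125 against 106.0 and the second at 117 against 99.6. From 40 kb on, bars lie on both sides of the line. They stand at 80 against 67.4 from 180 to 200 kb and at 66 against 81.1 from 100 to 120 kb.

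No surplus over placement was seen among higher scores. When each list was restricted to its higher-scoring 50%, 117 of 1177 ESC regions were near a NeuPC region, against 126.6 given by placement with an SD of 10.5, a ratio of 0.924. The restricted lists started at scores of 54.48 for ESCs and 59.38 for NeuPCs. This difference was within 1 SD of the placement, and both lists were restricted at once.

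Near ESC regions were spread over all 22 chromosomes, and their share of the regions of a chromosome ranged from 12.1% on chromosome 15 to 37.2% on chromosome 21, with a median of 21.7%. On 13 chromosomes more ESC regions were near than placement gave and on 9 fewer. The differences on chromosomes 10, 15 and 21 were over 2 SD of the placement. With 22 chromosomes compared, some differences over 2 SD can be expected under placement itself. Chromosome 10 had 33 near regions of 124, against 23.4 given by placement, a ratio of 1.41. Chromosome 15 had 8 of 66, against 14.8, a ratio of 0.540. On the other 19 chromosomes, the percent given by placement lay inside the Wilson interval of the observed share.

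Chromosome 21 stood highest, with 16 of 43 ESC regions near a NeuPC region against 7.62 given by placement, a ratio of 2.10, although it had only 37 NeuPC regions. Joining regions of 1 list that lay up to 10 kb apart left 15 of 41 near, against 7.28, a ratio of 2.06. Placement allowed starts inside the widest stretch of this chromosome without regions, 5.38 Mb, which lowers the number it gives. The 16 regions formed no single cluster. A pair at chr21:10760614-10761008 (score 50.18) and chr21:11054767-11055145 (95.81) lay beside the widest stretch of chromosome 21 without regions, at 316 and 21.8 kb from it. A second pair, chr21:22378497-22378605 (55.44) and chr21:22444243-22444364 (51.91), shared 1 NeuPC neighbour. Another pair, chr21:23577752-23577865 (54.03) and chr21:23643236-23643354 (52.69), lay between a pair of NeuPC regions. A set of 3 lay within 11.7 kb of each other at chr21:41346596-41358273, all with the same NeuPC neighbour 53.5 to 65.1 kb away, and of these chr21:41346897-41347066 had the score of 96.76.

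The 8 near regions of chromosome 15 contrasted with these in being far apart and distant from their neighbours. They ran from chr15:35507626-35507735 to chr15:89922969-89923082, none was within 10 kb of a NeuPC region, and their median gap was 64.9 kb, against 39.0 kb on chromosome 21. The number of NeuPC regions per Mb was 1.19 on chromosome 15 and 0.970 on chromosome 21. These chromosomes were picked as the extremes of the near share, and others differed: chromosome 19, with 1.53 NeuPC regions per Mb, had 33.3% near and chromosome 8, with 0.929, had 13.5%.

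**Figure D2:**
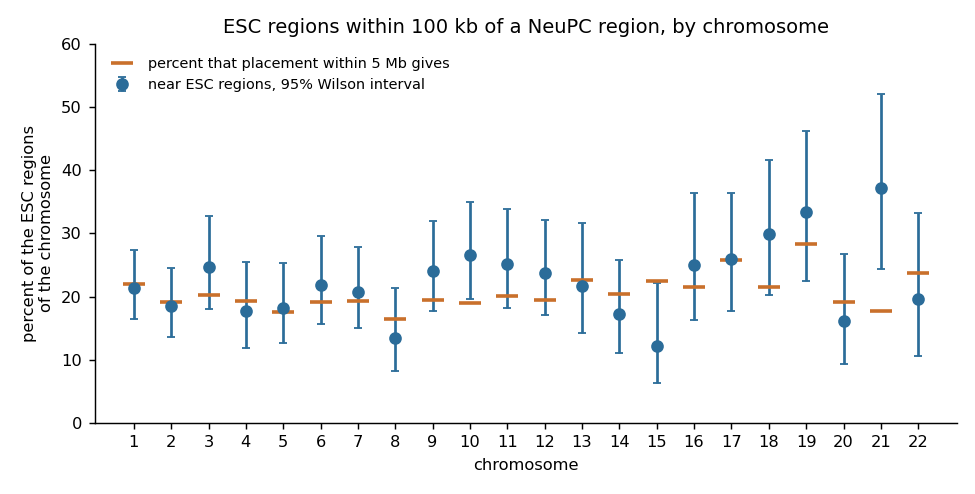
Percent of the ESC regions of each chromosome that lay within 100 kb of a NeuPC region (points, with 95% Wilson intervals) and the percent that placement within 5 Mb gives (horizontal marks). Chromosome 21 at 37.2% and chromosome 10 at 26.6% have intervals above their marks, and chromosome 15 at 12.1% has its interval below.

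Position along the chromosome was compared at the ends and beside the widest stretch without regions, which on many chromosomes includes the centromere. On others it does not, such as chromosome 2 (chr2:194859176-198647410) and chromosome 10 (chr10:18317819-22306633). The comparison is therefore not one of centromere flanks. Near regions at chr2:91754027-91863165 and chr3:90413727-90413779, far from these stretches, were counted as elsewhere. Within 5 Mb of the first or last region of a chromosome, 69 of 312 ESC regions were near (22.1%, interval 17.9 to 27.0%), and placement gave 22.4%. Elsewhere 444 of 2043 were near (21.7%), and placement gave 19.9%. Within 2 Mb of the widest empty stretch, 22 of 118 were near (18.6%, interval 12.6 to 26.6%). Placement gave 14.0%, or 16.5 regions, a ratio of 1.34 on few regions. It allowed starts inside the empty stretch, which holds no NeuPC region, so a low number from placement is partly built in here. The ratio without such starts was not calculated for these regions. The intervals of the shares overlapped in both comparisons.

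Seen from the near regions, most had a single partner. Of the 513 near ESC regions, 452 had 1 NeuPC region within 100 kb, 55 had 2 and 6 had 3 or more. For 457 near ESC regions, or 89.1%, the ESC and NeuPC regions were each other's nearest. The nearest NeuPC region lay at a higher coordinate for 246, at a lower one for 266, and overlapped for 1. The largest number of NeuPC regions around 1 ESC region was 5, at chr10:116640301-116640417 (score 53.22), whose nearest was 1534 bp away and which formed with them a neighbourhood from 116577101 to 116695163 on chromosome 10.

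Near regions of both lists were then linked into neighbourhoods, in which each ESC region lies within 100 kb of a NeuPC region of the same neighbourhood. The 513 ESC and 514 NeuPC regions formed 451 neighbourhoods with a median span of 52.9 kb. Of these, 354 (78.5%) held 1 region of each list, 79 held 3 regions and 18 held 4 or more. Among the 79 with 3 regions, 41 had 2 ESC regions and 38 had 2 NeuPC regions. At least 2 regions of each list were found in 10 neighbourhoods, on 7 chromosomes.

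With 4 ESC and 2 NeuPC regions in 109 kb, the neighbourhood at chr2:91754027-91863165 held the most ESC regions of these 10. Its ESC regions, from low to high coordinate, had scores of 59.12, 65.89, 50.74 and 60.24, and all of them had the same nearest NeuPC region, chr2:91793973-91794119 with a score of 62.41. Of the 4, 3 were longer than 200 bp, with chr2:91786709-91787158 at 450 bp.

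The neighbourhood at chr18:34273259-34443437 held 3 regions of each list in 170 kb. Its ESC regions stood together in the middle, with scores of 61.94, 50.45 and 58.46, and the NeuPC regions lay outside them, with scores of 60.92, 59.75 and 62.92. The smallest gap between the lists was 37.8 kb. On chromosome 2, chr2:217362259-217535975 had the lists interleaved, with ESC scores of 54.03, 51.73 and 51.47, NeuPC scores of 63.57 and 60.72, and a smallest gap of 4083 bp.

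On chromosome 11, chr11:73578451-73759384 and chr11:101684332-102004173 each had 2 ESC and 3 NeuPC regions. The latter had the largest span of the 451, 320 kb, and its highest scores were 69.59 in ESCs and 72.62 in NeuPCs. On chromosome 12, chr12:2811254-2990451 had 3 ESC and 2 NeuPC regions, and its ESC region chr12:2877524-2877619 reached 95.23 while its NeuPC regions had 50.58 and 59.16.

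The remaining 4 had 2 regions of each list. At chr17:800451-817416, all 4 regions lay within 17.0 kb, with the NeuPC regions (66.69 and 64.98) on one side and the ESC regions (57.19 and 56.93) on the other. At chr17:66096092-66198619 the lists alternated, with ESC scores of 54.03 and 55.41 and NeuPC scores of 65.68 and 58.95. At chr10:42745072-42839177 and chr21:23553462-23710442, the NeuPC regions stood on the outside and the ESC regions between them. In 8 of the 10 neighbourhoods, all but those at chr2:91754027-91863165 and chr12:2811254-2990451, the highest NeuPC score exceeded the highest ESC score. The NeuPC list also scored higher as a whole, with a median of 59.38 against 54.48 in ESCs.

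**Figure D3:**
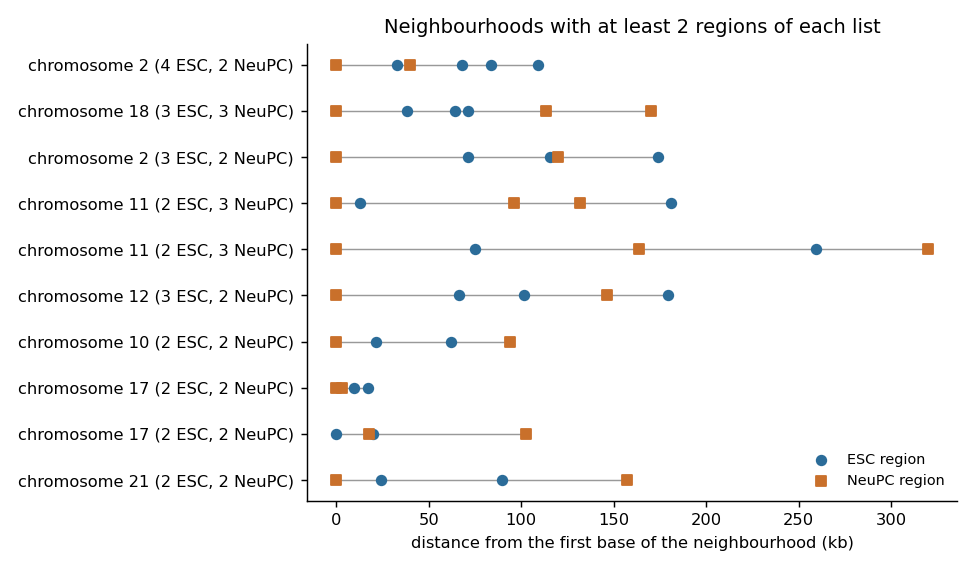
Order of ESC regions (circles) and NeuPC regions (squares) in the 10 neighbourhoods with at least 2 regions of each list, drawn by distance in kb from the first base of the neighbourhood. The regions of the lists stand in separate blocks in the first chromosome 17 row, within 17.0 kb, and alternate over 320 kb in the longer chromosome 11 row.

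On the scale of 1 Mb, 421 of the 1520 bins with an ESC region held a near one, 75 held at least 2 and 16 held at least 3. Several regions of both lists, meaning at least 2 of each, were found in 206 bins, on all 22 chromosomes, and these bins held 227 near ESC regions, 44.2% of the near regions, and 524 ESC regions in all, 22.3% of the list. Bins asked to hold NeuPC regions favour near regions by construction. A shared bin did not always mean shared neighbourhoods. Of the 206 bins, 55 had no near ESC region, 92 had 1, 43 had 2 and 16 had 3 or more. Bins with at least 2 ESC regions had at least 2 NeuPC regions in 35.7% of cases (206 of 577, interval 31.9 to 39.7%). For bins with 1 ESC region this share was 29.5% (278 of 943) and for bins with none it was 26.0% (332 of 1279, interval 23.6 to 28.4%). The bins with none included bins inside stretches without regions of either list, such as 21.4 Mb on chromosome 1 and 19.6 Mb on chromosome 9. Such bins held no NeuPC region and lowered this last share.

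**Figure D4:**
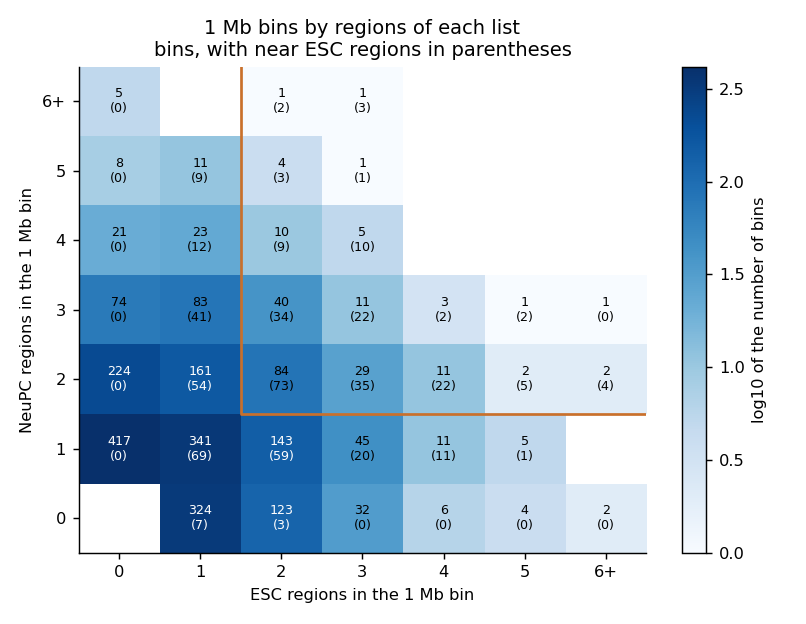
Number of 1 Mb bins by the number of ESC regions (horizontal) and NeuPC regions (vertical) they hold, with the number of near ESC regions in parentheses and shading by log10 of the number of bins; 6+ stands for 6 or more. The bins right of and above the line are the 206 with at least 2 of each list, and the most frequent of these, 84 bins with 2 of each, held 73 near ESC regions.

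The bin with the most near ESC regions was 91 to 92 Mb of chromosome 2, in which all 4 ESC regions were near, as described above. The other 15 bins held 3. In 9 of them all ESC regions of the bin were near: 95 to 96 Mb of chromosome 1, 217 to 218 Mb of chromosome 2, 53 to 54 Mb of chromosome 7, 1 to 2 and 102 to 103 Mb of chromosome 10, 11 to 12 Mb of chromosome 11, 70 to 71 Mb of chromosome 14, 0 to 1 Mb of chromosome 17 and 34 to 35 Mb of chromosome 18. The near regions were packed within 33.3 kb in the bin on chromosome 18 but spread over 965 kb in that on chromosome 11, where their gaps were 62795 to 99170 bp.

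In the other 6 bins, part of the ESC regions were near. Near the higher end of chromosome 4, in the bin from 190 to 191 Mb, 3 of 9 ESC regions were near, and all 3, within chr4:190557283-190642162, had the same nearest NeuPC region. At 77 to 78 Mb of chromosome 18, 3 of 4 ESC regions were near, among them the region 40 bp from its neighbour. At 2 to 3 Mb of chromosome 12 it was 3 of 5, and at 0 to 1 Mb of chromosome 6, 18 to 19 Mb of chromosome 7 and 41 to 42 Mb of chromosome 21 it was 3 of 4. The 16 bins, chosen for their near regions, held 2 NeuPC regions in 9 cases and up to 6, in the bin at the start of chromosome 17.

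Clustering of the ESC list with itself was measured in the same way. Of the near ESC regions, 114 (22.2%, interval 18.8 to 26.0%) had another ESC region within 100 kb, and of the other ESC regions 352 (19.1%, interval 17.4 to 21.0%) had one. These intervals overlapped. Over all ESC regions, 466 had another within 100 kb, against 390.5 given by placement, a ratio of 1.19, but with ESC regions at most 10 kb apart merged into 1 the ratio was 1.00 (380 against 378.9). Merging left the ratio of ESC to NeuPC regions at 1.08 (503 against 465.6).

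Length did not differ in the middle of the distributions. The median was 121 bp for near and for other ESC regions, with quartiles of 113 and 127 bp against 112 and 127 bp. Regions longer than 200 bp made up 15 of the near regions (2.92%, interval 1.78 to 4.77%) and 26 of the others (1.41%, interval 0.965 to 2.06%). The intervals overlapped in part, which does not show that the shares were equal. The longest near region was chr17:41381646-41382338, with 693 bp and a score of 80.77, and the longest of the others had 4410 bp. Of the 15 long near regions, 3 belonged to the neighbourhood at chr2:91754027-91863165 and 2 to the bin from 190 to 191 Mb of chromosome 4. Another 2 were the pair beside the widest stretch without regions of chromosome 21.

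The peak caller's score, which has no stated unit and starts just above 50 in both lists, was similar in near and other ESC regions. The median was 53.76 in near regions (95% interval of the median from order statistics 53.48 to 54.59) and 54.59 in the others (interval 54.13 to 55.01). A score of at least 60 was found for 119 near regions (23.2%, interval 19.8 to 27.0%) and 460 others (24.97%, interval 23.05 to 27.00%). This share depended on the window. With a window of 50 kb the share of near regions moved to 27.1%, above that interval, and with 200 kb it was 22.9%. Scores of at least 100 were found for 2 near regions (0.390%, interval 0.107 to 1.41%) and 25 others (1.36%, interval 0.921 to 2.00%). When ESC regions were ranked by score and divided into 4 equal parts, from low to high, 23.9, 22.8, 19.9 and 20.5% of regions were near. Each pair of intervals overlapped. On the NeuPC side, 40.5% of near and 45.4% of other regions scored at least 60 (intervals 36.3 to 44.8% and 43.5 to 47.4%).

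**Figure D5:**
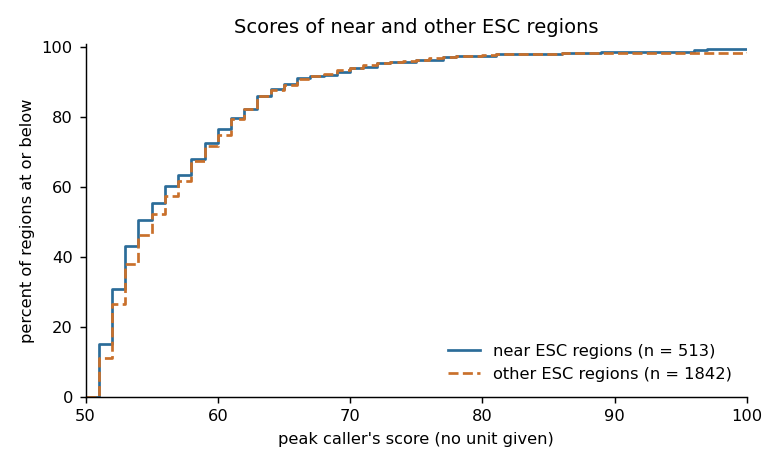
Cumulative percent of near and other ESC regions at or below each score, from 50 to 100 (peak caller's score, no unit given). The near line runs slightly above the other line at low scores, with 50.5 against 46.2% at or below 54, and the lines run close together above 60.

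The near ESC region with the highest score was chr3:90413727-90413779, only 53 bp long, with 128.27 and a NeuPC neighbour of 54 bp and score 66.6 at 44.2 kb. Next came chr4:7865633-7865889 with 103.37, whose neighbour scored 61.86 at 20.9 kb. The regions chr21:41346897-41347066 (96.76), chr21:11054767-11055145 (95.81) and chr6:12515767-12515881 (95.32) completed the top 5. Their NeuPC neighbours scored 56.83, 53.2 and 57.54. The neighbours of the first 2 thus scored above the median of 59.05 of all nearest NeuPC regions and those of the other 3 below it.

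Over the 513 near ESC regions and their nearest NeuPC regions, Spearman's rho was -0.048 for the scores, 0.0061 for the lengths and -0.034 for the gap against the ESC score. These are descriptions across regions of 1 library each, and some regions share a neighbour. Both scores were at least 60 in 48 pairs and below 60 in 231. Both reached 70 in only 3 pairs. These were chr3:75736718-75737071 (76.23) with chr3:75723358-75723652 (75.55), 13065 bp apart, chr17:26211595-26211661 (74.38) with chr17:26229643-26229710 (77.7), 17981 bp apart, and chr6:80797270-80797393 (71.46) with chr6:80822288-80822430 (77.85), 24894 bp apart. No pair had both scores at 80 or above.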

How the data were processed

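The authors mapped the reads and called 1 list of NUP98-binding regions per cell type. MACS is named in the deposited lists, but the methods give Audic-Claverie peak calling in Genomatix. Parameters and control library are not given in the sources used here, and hg19 and GRCh37 come from the submitters' processing notes. Each region carries positions and the score the authors' peak caller gave, with no unit. Depth was not used here. Starts were converted to count from 1. Chromosomes 1 to 22 were kept, leaving out 144 of 2499 ESC regions.

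Gaps between edges, 1 Mb bins (by midpoint) and neighbourhoods were computed with Python 3.11.15, pandas 2.3.3 and numpy 2.4.6. Placement was an exact sum over all starts within 5 Mb, between the first and last region of both lists on the chromosome, and was checked on simulated lists. Wilson intervals (95%) cover counting error only, and regions of 1 library are not replicates, so no test was made. Overlap of such intervals does not show that shares are equal. The rule named regions overlapping or within 10 kb of a NeuPC region, the 5 highest scores, the 3 on each side of the limit, and bins with at least 2 of each list and 5 in all. It was narrowed after values were seen to the 12 closest regions, the 10 neighbourhoods with 2 of each list and the 16 bins with 3 near regions. Regions longer than 200 bp, pairs with both scores at 70 and chromosomes 15 and 21 were also chosen after values were seen. The members and lists were chosen with earlier results of these data known.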

Additional observations from a re-analysis of the deposited data

How the results depend on the processing

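Of 34 comparisons with an alternative setting, 18 stayed close to the reported value and 16 moved. The number of near ESC regions followed the window, with 295 at 50 kb and 898 at 200 kb, and was 117 in the higher-scoring 50% of each list, where fewer regions were compared. It was 513 between region centres and 503 after joining. The ratio to placement was 1.16 at 50 kb and 0.924 in the higher-scoring 50%, below 1 by less than 1 SD of the placement; the cause was not tested. Elsewhere it stayed between 1.02 and 1.13. The setting without the widest empty stretch was chosen after seeing the data, as were the alternatives for NeuPC regions, neighbourhoods, clustering within a list and shares of scores. Bins with several regions of both lists numbered 23 when at least 3 of each were asked for, 207 with bins shifted by 0.5 Mb and 196 after joining. No replicate could be left out and no paired analysis was possible because each cell type has 1 NUP98 library. Depth and the IgG libraries were not used here, and placement treats every position between the first and last region as open to a call.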
